A study of Homo sapiens with 4 samples.

Results

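To examine where FOXK2 bound around genes that set the activity of the mTOR kinase, the FOXK2 ChIP-seq peaks assigned to DDIT4, SESN1, SESN2, SESN3, TSC1, TSC2, MTOR, RPTOR, RICTOR and DEPTOR were collected. A peak was taken as a member's when its Gene Name in the deposited annotation, the gene of the nearest transcription start site (TSS) at any distance, was one of these 10 symbols. Of these symbols, 7 name inhibitors or brakes of the pathway, whereas MTOR, RPTOR and RICTOR encode the kinase and the defining scaffolds of its complexes. The cells were OVCAR5, an established ovarian cancer line that the labels call high grade serous, cultured without any treatment named in the labels and crosslinked for chromatin immunoprecipitation with an antibody against FOXK2. There was 1 condition with 2 replicates, called biological in the study's methods, and the 2 matched input samples were not analysed here. A single line in a single condition allows no test between conditions, so values are given by replicate. The 10 genes held 13 of the 12471 peaks of replicate 1 and 24 of the 27281 peaks of replicate 2.

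mTOR is a protein kinase that drives protein synthesis and cell growth when nutrients and growth factors are plentiful. It works in a complex built on raptor (RPTOR), called mTORC1, and in another built on rictor (RICTOR), called mTORC2, while DEPTOR binds and inhibits the kinase in both. TSC1 and TSC2 form a complex that switches off RHEB, the small GTPase that activates mTORC1 on the lysosome. DDIT4, also known as REDD1, is induced by stresses such as hypoxia and endoplasmic reticulum stress and acts through the TSC complex. The sestrins are stress-induced proteins that restrain mTORC1 through GATOR2, and SESN2 also senses leucine. Forkhead factors of the FOXO class are known to induce SESN3, and FOXK factors are known for controlling genes of autophagy, the degradation process that mTORC1 suppresses.

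Of the 10 genes, 7 (DDIT4, SESN2, TSC1, MTOR, RPTOR, RICTOR and DEPTOR) had a FOXK2 peak at the promoter that overlapped between the replicates, meaning that peaks from both lists shared at least 1 bp and both carried the promoter class of the deposited annotation. By HOMER's default this class runs from 1000 bp upstream to 100 bp downstream of a TSS, which need not be the TSS from which a peak's distance is given. The same was true of 9.04% of 20033 protein-coding genes. In replicate 1 the 7 genes were also the only ones of the 10 with any peak, against 31.3% of all genes, and in replicate 2 all 10 genes had a peak, against 51.7%. A peak in both replicates was found for 7 of 10 genes and 28.6% of all genes, and peaks that overlapped between replicates for 7 of 10 and 25.5%. Long genes had peaks more often (a peak in both replicates for 47.6% of genes that span 100 kb or more and 24.8% of shorter ones), and 5 of the 10 genes are of that length. Of these 5, 4 (MTOR, RPTOR, RICTOR and DEPTOR) had an overlapping promoter peak, against 9.33% of 3356 genes of that size, and so did 3 of the 5 shorter genes, against 8.98% of 16677. These shares are descriptions, since the genes were chosen with earlier results of these data known and no test was made.

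The DNA under the peaks is shown for the sites that the results turn on, as the stretch that the replicates' peaks shared. The first 4 are those with the exact FOXK2 heptamer TGTTTAC, on either strand. The DDIT4 promoter had a relaxed form of it, and the MTOR promoter is shown as a site with neither. Each sequence is from hg38, 5′ to 3′ on the strand of the gene, which is the minus strand for TSC1, RICTOR and MTOR and the plus strand for RPTOR and DDIT4. Capitals mark the relaxed forkhead core on either strand, which is the heptamer itself (TGTTTAC) and its variants with the letters TGTTTAT, with the letters TATTTAC and with the letters TATTTAT.
TSC1 promoter, chr9:132944908-132945112: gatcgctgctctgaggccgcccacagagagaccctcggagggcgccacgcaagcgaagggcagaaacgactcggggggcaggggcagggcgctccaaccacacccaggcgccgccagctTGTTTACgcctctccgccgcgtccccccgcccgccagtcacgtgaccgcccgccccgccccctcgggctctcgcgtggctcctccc
RICTOR intron 2, chr5:39073327-39073537: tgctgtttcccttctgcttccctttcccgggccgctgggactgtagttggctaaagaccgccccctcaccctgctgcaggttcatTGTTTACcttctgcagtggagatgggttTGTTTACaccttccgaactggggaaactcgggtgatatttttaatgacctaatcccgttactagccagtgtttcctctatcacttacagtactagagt
RPTOR intron 3, chr17:80672242-80672452: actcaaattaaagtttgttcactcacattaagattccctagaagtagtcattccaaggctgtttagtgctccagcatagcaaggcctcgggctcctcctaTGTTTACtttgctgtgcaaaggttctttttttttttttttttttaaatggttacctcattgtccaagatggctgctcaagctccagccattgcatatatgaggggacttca
RPTOR intron 6, chr17:80760735-80760918: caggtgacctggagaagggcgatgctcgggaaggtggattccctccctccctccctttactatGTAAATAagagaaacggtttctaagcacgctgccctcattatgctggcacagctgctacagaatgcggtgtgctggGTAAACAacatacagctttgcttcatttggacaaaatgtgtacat
DDIT4 promoter, chr10:72273476-72273686: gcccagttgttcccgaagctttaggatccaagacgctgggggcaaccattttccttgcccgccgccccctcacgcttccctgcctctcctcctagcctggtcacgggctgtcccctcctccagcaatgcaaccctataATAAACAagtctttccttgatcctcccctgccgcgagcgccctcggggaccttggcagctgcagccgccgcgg
MTOR promoter, chr1:11262665-11262862: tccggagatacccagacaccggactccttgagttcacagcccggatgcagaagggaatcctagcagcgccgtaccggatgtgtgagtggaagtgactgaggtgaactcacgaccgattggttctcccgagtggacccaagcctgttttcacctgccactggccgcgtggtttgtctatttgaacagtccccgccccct

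The plot of score percentiles by gene shows how unequal the peaks were. The peak score was taken, from the step between scores, as HOMER's tag count scaled to library size. Peaks were therefore ranked only within a list, as a percentile in which 100% is the highest score.

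**Figure D1:**
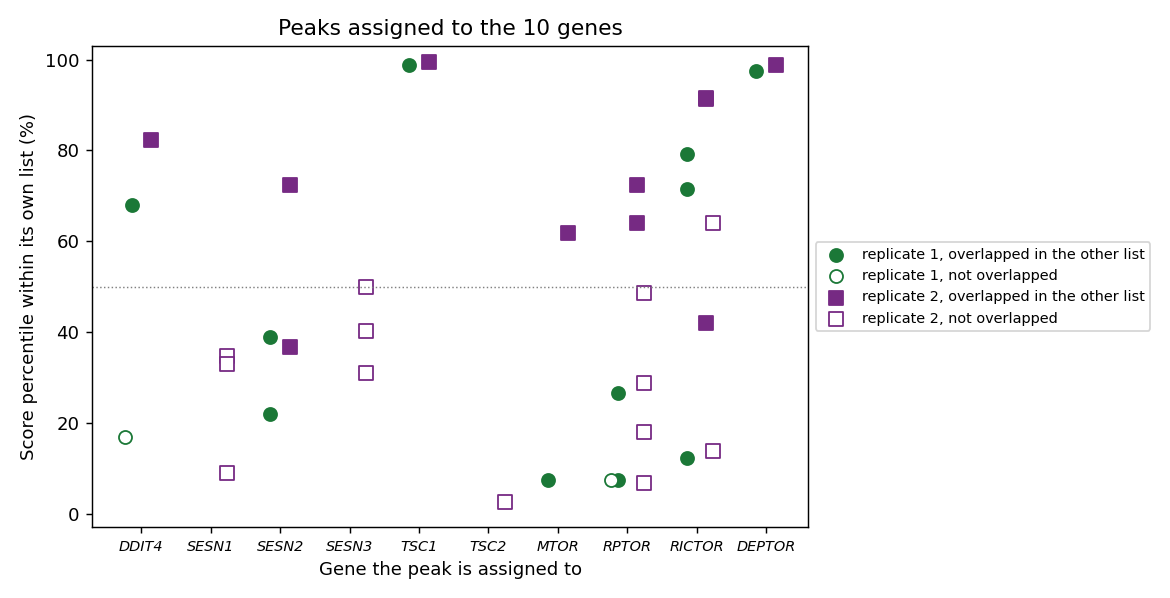
Each point is a peak assigned to 1 of the 10 genes (horizontal axis), at its score percentile within its own list (vertical axis, %), with circles for replicate 1 and squares for replicate 2. Filled points overlap a peak of the other replicate and open points do not, and the dotted line marks the middle of a list. TSC1 and DEPTOR lie above 97% in both replicates, and SESN1, SESN3 and TSC2 have open squares only.

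DDIT4, the stress-induced brake, had a promoter peak centred 338 bp upstream of its TSS in replicate 1 and 336 bp upstream in replicate 2. Its score was 7.36 in replicate 1, which corresponds to 39 tags (exact Poisson 95% interval 27.7 to 53.3), and 12.6 in replicate 2, or 85 tags (67.9 to 105). Among promoter peaks alone it ranked 1075 of 2709 and 1329 of 4910, near the middle of the first list and in the upper part of the second. The sequence above holds no heptamer and a single relaxed core, chr10:72273614-72273620, 36 bp downstream of the replicate 1 centre. This core overlaps a match to the p53 half-site, chr10:72273616-72273625. The peak centre also lies within a long non-coding RNA gene (ENSG00000289506) whose start is 123 bp away, closer than that of DDIT4. A second DDIT4 peak, 12218 bp downstream of the TSS, was called in replicate 1 alone with a score of 4.34 (23 tags).

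Of the sestrins, SESN2 was the sole member with peaks in both replicates. A pair of overlapping peaks lay 9879 and 9875 bp upstream of its TSS, with scores of 5.28 (28 tags) and 10.3 (69 tags), and a relaxed forkhead core 14 and 18 bp from the centres. The SESN2 promoter peak was weaker, at 4.53 (24 tags) in replicate 1 and 6.1 (41 tags) in replicate 2. Its centres, 63 and 134 bp upstream of the TSS, were 71 bp apart, and it held no forkhead core. In replicate 2 it ranked 3823 of 4910 promoter peaks.

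SESN1 and SESN3 had assigned peaks in replicate 2 alone, away from their promoters. In replicate 1, a peak in SESN3 intron 1 was assigned to LOC100129203, and a peak centred 637 bp upstream of the SESN1 gene to CEP57L1, whose TSS was 861 bp from it. Both of these scored 4.34, at a percentile of 17.0%, and neither counts here. SESN1 had 3 peaks in intron 1, with scores of 5.95 (40 tags), 5.8 (39 tags) and 4.16 (28 tags). The first held the heptamer 13 bp from its centre, and the second held one 94 bp from its centre. SESN3 had 3 intergenic peaks, 21888, 224325 and 226864 bp upstream of its TSS, with scores of 5.65, 7.29 and 6.39. The middle of these held the heptamer 11 bp from its centre. Distance makes the assignment of the last pair of SESN3 peaks to the gene uncertain. None of the 6 assigned peaks scored above the middle of the list, and few peaks of their ranks recurred. Of the 1000 replicate 2 peaks nearest in rank to each, 4.20% to 16.8% overlapped replicate 1 for the SESN1 peaks and 11.0% to 24.8% for the SESN3 peaks. A peak missing from replicate 1 at such scores was not called at this depth, which does not show that binding was absent.

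The strongest peak of the 10 genes was at TSC1. It was centred 380 bp upstream of the TSS in replicate 1 and 351 bp upstream in replicate 2, and scored 24.7 (131 tags, 110 to 155) and 46.7 (314 tags, 280 to 351). These scores ranked 156 of 12471 and 177 of 27281, and the peak was 3rd of 489 and 4th of 1105 on chromosome 9. Its shared stretch had 74.1% G and C with 24 CpG dinucleotides, and carried the heptamer at chr9:132944987-132944993, 23 bp from the centre in replicate 1 and 6 bp in replicate 2. An E-box, CACGTG, the palindromic site of MITF/TFE, USF and MYC factors, lay at chr9:132944950-132944955, with 31 bp between the sites. Of all promoter peaks, 10.7% in replicate 1 and 10.1% in replicate 2 held an E-box within 100 bp of the centre. The peak is also near GFI1B, a gene for a blood-cell transcription repressor. In GENCODE its centre lay inside both genes, 538 bp from a GFI1B start in replicate 1 and 567 bp in replicate 2, against 244 and 215 bp from the nearest TSC1 start.

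TSC2, the partner that carries the catalytic domain of the complex, stood at the other end of the range. Its only peak was in replicate 2, in intron 9, 9118 bp from the TSS, with a score of 3.72 (25 tags) and a percentile of 2.71%. Among 1000 peaks of about its rank in that list, 1.20% recurred in replicate 1. No forkhead core was found within 100 bp of its centre.

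MTOR, the kinase, had a single peak in each replicate, at its promoter, 206 bp upstream of the TSS in replicate 1 and 242 bp upstream in replicate 2. Its score was 3.96 (21 tags, 13.0 to 32.1) in replicate 1, in the lowest part of the list at 7.54%. In replicate 2 it was 8.63 (58 tags, 44.0 to 75.0), at 61.9% of a longer list. With lists of equal length, the mean best percentile of MTOR fell from 34.7% to 12.1%. Of the 1000 replicate 1 peaks closest in rank, 48.2% recurred in replicate 2. The MTOR sequence above holds no forkhead core.

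RICTOR, the mTORC2 scaffold, had the most assigned overlapping pairs of the 10 genes. Its promoter peak, 41 and 38 bp downstream of the TSS in exon 1, scored 8.87 (47 tags) and 17.5 (118 tags). A peak of similar height lay 976 and 956 bp downstream of the TSS in intron 2, with scores of 7.73 (41 tags) and 17.4 (117 tags). The promoter peak held no forkhead core, whereas the intron 2 peak held 2 heptamers in the same orientation, chr5:39073446-39073452 and chr5:39073418-39073424, with starts 28 bp apart and 21 bp between them. At least 2 heptamers within 100 bp of the centre occurred in 1.74% of the peaks of replicate 1 and in 1.50% of those of replicate 2. The remaining pair, 18167 and 18181 bp upstream of the TSS, was weak, at 4.15 (22 tags) and 6.54 (44 tags). It held an AP-1 site, TGACTCA or its reverse complement, the element of JUN and FOS dimers, as did 16.4% and 16.6% of all peaks. A further RICTOR peak, 26621 bp upstream, was called in replicate 2 alone at 8.92 (60 tags) and held 2 heptamers. Another, in intron 3, scored 4.46 (30 tags) in replicate 2.

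RPTOR, the mTORC1 scaffold, was the longest of the 10 genes at 422 kb. Its assigned pairs stood low in the list of replicate 1 and above the middle of the longer list of replicate 2. With lists of equal length, the mean best percentile of RPTOR fell from 49.6% to 33.2%. The promoter pair, 13 and 28 bp downstream of the TSS, scored 4.72 (25 tags) and 10.3 (69 tags), at percentiles of 26.7% and 72.4%, and held no forkhead core. The pair in intron 3, 127522 and 127503 bp from the TSS, scored 3.96 (21 tags) and 8.92 (60 tags), at 7.54% and 64.1%, and held the heptamer 2 and 17 bp from the centres, at chr17:80672342-80672348. Another 4 peaks in replicate 2, with scores of 4.02 to 7.14, and 1 peak in replicate 1, at 3.96, did not overlap the other list.

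The strongest peak inside RPTOR was not among these, because the annotation assigned it to another gene. It lay in intron 6 of RPTOR, 216002 bp from the RPTOR start in replicate 1, and was assigned to LOC101928855, whose TSS was 44792 bp away. Its score was 13.4 (71 tags) in replicate 1, at rank 841, and 32.1 (216 tags) in replicate 2, at rank 462, and its shared stretch held the heptamer and a further relaxed core. It is outside the rule that chose the peaks and enters none of the counts of assigned peaks. By position, the RPTOR span held 5 peaks in replicate 1 and 11 in replicate 2, of which 2 and 6 were assigned to neighbours.

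**Figure D2:**
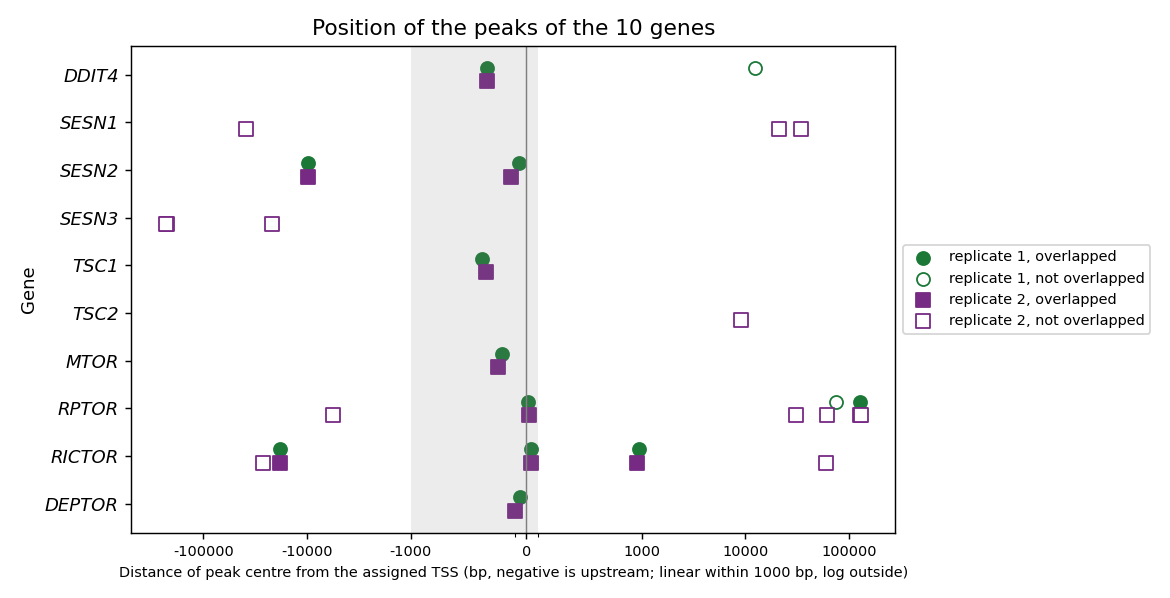
Distance of each peak centre from the assigned TSS (horizontal axis, bp, negative upstream, linear within 1000 bp and log outside) for each of the 10 genes, with circles for replicate 1 and squares for replicate 2, filled when the peak overlapped the other list. The shaded band runs from 1000 bp upstream to 100 bp downstream, and 7 genes have a filled circle and a filled square in it, while SESN1, SESN3 and TSC2 have none.

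DEPTOR, the inhibitory subunit, had a single peak in each replicate, at its promoter, 58 and 98 bp upstream of the TSS. It scored 19.2 (102 tags, 83.2 to 124) and 38.4 (258 tags, 227 to 291), at ranks 317 and 290, second to TSC1 among the 10 genes in both lists. It held 1 relaxed forkhead core, 6 bp from the centre in replicate 1 and 34 bp in replicate 2, and no heptamer. The centre lay within the antisense gene DEPTOR-AS1, and the nearest other start, 886 bp away in replicate 1, was that of the antisense RNA. Scores on chromosome 8, where DEPTOR lies, were the highest of any chromosome compared, with a median percentile of 75.6% in replicate 1 and 74.6% in replicate 2. Ranked within that chromosome, the DEPTOR peak was 30th of 553 and 27th of 1126. The part of the chromosome's level in the DEPTOR score was not tested.

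By the best peak of each gene, the order was TSC1, DEPTOR, RICTOR, DDIT4, SESN2, RPTOR and MTOR in both replicates, with RPTOR level with SESN2 in replicate 2, followed there by SESN3, SESN1 and TSC2. The steps between neighbours are a description, and their differences were not tested. The intervals of the tags of neighbours, which cover neither library preparation nor culture, overlapped in each replicate in which both genes had a peak, except at the step from DEPTOR to RICTOR. Overlap of these intervals does not show that the levels were alike. Those of DEPTOR and RICTOR were apart in either replicate, with 83.2 to 124 tags against 34.5 to 62.5 in replicate 1 and 227 to 291 against 97.7 to 141 in replicate 2.

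The score ratio of a pair between replicates was also taken. It carries the scale of each list, so its level has no meaning of its own and it serves only to set the pairs of the 10 genes beside all pairs. Across all 9343 overlapping pairs, the score ratio of replicate 2 to replicate 1 had a median of 1.73 (interquartile range 1.45 to 2.02), and across the 11 pairs of the 10 genes a median of 1.97 (full range 1.35 to 2.25). The lowest was the SESN2 promoter pair at 1.35 (95% interval 0.795 to 2.33). The highest were the RICTOR intron 2 and RPTOR intron 3 pairs, both at 2.25. Of the 13 replicate 1 peaks, 11 overlapped replicate 2 (84.6%, Wilson 95% interval 57.8% to 95.7%), against 74.9% of all replicate 1 peaks. Of the 24 replicate 2 peaks, 11 overlapped replicate 1 (45.8%, 27.9% to 64.9%), against 34.2% of all. The peaks of the 10 genes were more often of the promoter class, at 53.8% and 29.2% against 21.7% and 18.0% of all peaks. Promoter peaks overlapped more often than all peaks did, at 79.1% in replicate 1 and 43.9% in replicate 2. The intervals also treat several peaks of 1 gene as independent.

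**Figure D3:**
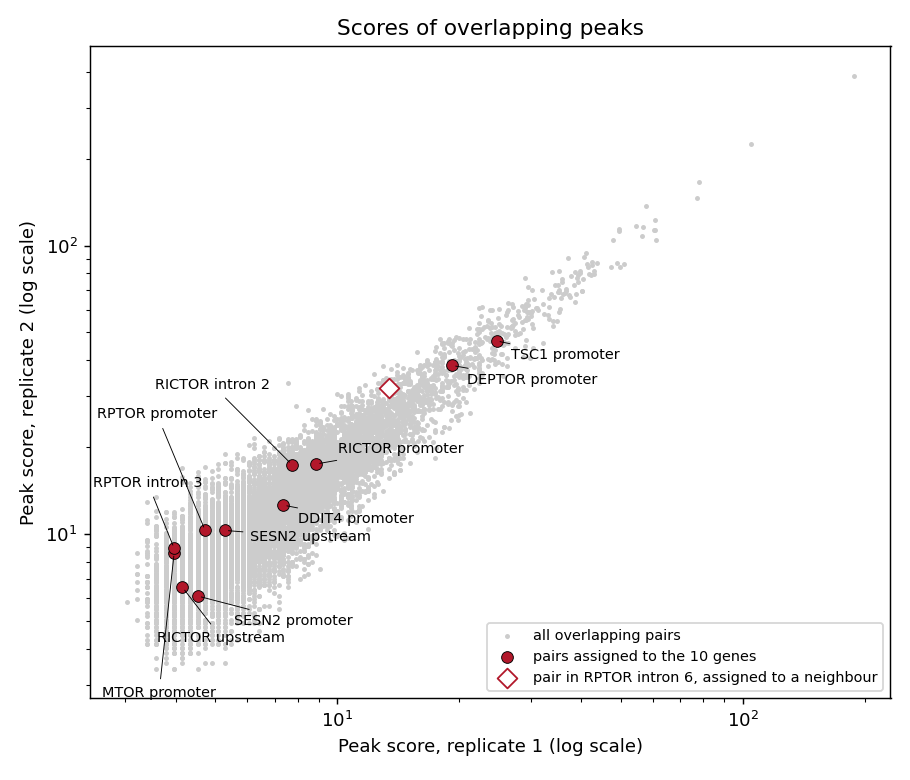
Peak score in replicate 1 (horizontal, log scale) against replicate 2 (vertical, log scale) for all overlapping pairs (grey), the 11 pairs assigned to the 10 genes (red) and the pair in RPTOR intron 6 that was assigned to a neighbour (open diamond). The TSC1 and DEPTOR pairs lie high in the cloud, and the MTOR, RPTOR and SESN2 pairs and the upstream RICTOR pair lie at its left, with replicate 1 scores of 3.96 to 5.28.

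The forkhead heptamer was about as frequent in the peaks of these genes as in all peaks of the same kind. Of the 7 genes with an overlapping promoter peak, TSC1 was the only one with the heptamer within 100 bp of the promoter centre. Over all promoter peaks, 14.4% in replicate 1 and 10.9% in replicate 2 held it. Outside promoters, 2 of 6 peaks of the 10 genes in replicate 1 and 6 of 17 in replicate 2 held it, against 35.0% and 32.0% of all such peaks. In total 3 of 13 peaks (23.1%) and 7 of 24 peaks (29.2%) held it, beside 30.5% and 28.2% of all peaks and 2.88% and 2.89% of windows placed 2000 bp to each side. Counted by gene, 3 of 10 (TSC1, RPTOR and RICTOR) had the heptamer in an overlapping pair, against 10.2% of all genes. By length, these were 2 of 5 genes that span 100 kb or more, against 21.8%, and 1 of 5 shorter ones, against 7.92%. With the relaxed core DDIT4, SESN2 and DEPTOR were added, which made 6 of 10, against 14.9%. Genes without overlapping peaks enter these shares, and they were 3 of the 10 genes but most of all genes. Counted by peak, of all overlapping peaks, 34.3% in replicate 1 and 34.9% in replicate 2 held the heptamer, and 54.4% and 55.1% held the relaxed core, beside 18.0% and 18.1% of the windows to each side.

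The CRE, TGACGTCA, and the C/EBP-ATF element, TGATGNAAT, which ATF factors of the stress response bind, were found in none of the 13 and 24 peaks. The CRE was in 0.810% of all peaks of replicate 1 and 0.803% of those of replicate 2, and the C/EBP-ATF element in 1.15% and 1.42%. The p53 half-site was matched by sequence, and its consensus letters are not given here. It was found in 2 peaks of replicate 1 (15.4%) and 4 of replicate 2 (16.7%), beside 7.63% and 7.29% of all peaks. At the DDIT4 promoter the match shared bases with the forkhead core in both replicates. In replicate 2 the matches included the SESN3 peaks 224325 and 226864 bp upstream, and the first of these shared bases with the heptamer. All of these motif counts are of a few peaks and carry no test. All motifs were searched on both strands. In the RefSeq promoter sequences (GRCh38.p14, 250 bases before to 50 after the start), found for 9 of the 10 genes, no gene held the heptamer, while 3.42% of 35116 promoters did. The TSC1 site lies upstream of that window.

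Beyond the 10 genes, 52 other genes of the pathway were examined by role. In total 25 of 52 (48.1%) had a peak in both replicates, 23 (44.2%) had overlapping peaks and 11 (21.2%) had overlapping promoter peaks, above the shares over all genes given before, while 16 had no peak at all, as did 45.6% of all genes. Of the mTOR substrates, 6 of 8 had overlapping peaks. TBC1D7, the additional subunit of the TSC complex, and the GTPases RHEB and RHEBL1 all had overlapping peaks, none of them in the promoter class. None of the 3 GATOR1 subunits (DEPDC5, NPRL2 and NPRL3), which inhibit the Rag GTPases, had a peak in either list, and none of the 4 Rag GTPases had a peak in both, as was so of 71.4% of all genes. Of the GATOR2 subunits, on which the sestrins act, 3 of 5 had overlapping peaks, and of the 5 Ragulator subunits 1 did (LAMTOR1). Overlapping peaks were found at 4 of 8 AMPK genes (STK11 included), 3 of 4 amino acid sensors, 3 of 7 further mTOR complex genes and 0 of 4 KICSTOR subunits. DDIT4L, the relative of DDIT4, had no peak.

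Among these genes the best-ranked peak was at STK11, which encodes LKB1, the kinase that activates AMPK. Its promoter peak scored 16.6 and 38.2, at ranks 449 and 293, close to DEPTOR, and held 1 heptamer. EIF4EBP1, a translation repressor that mTORC1 phosphorylates, lies on the same chromosome as DEPTOR and had a peak in its first kilobase at 13 and 24.2, and its relative EIF4EBP3 had a promoter peak at 11.1 and 17.5. MLST8, a subunit of both mTOR complexes, had a promoter peak at 13.8 and 18.1. Of the AMPK subunits, PRKAB2 had a promoter peak at 10.9 and 22.9, and PRKAG2 an intronic peak at 10.6 and 18.4. RHEBL1 had a peak 105 and 51 bp downstream of its TSS that scored 10 and 30.5. ULK1, the autophagy kinase that mTORC1 inhibits, had an intronic peak at 10.6 and 15.5. GRB10, an adaptor phosphorylated by mTORC1, had its best peak, of the intron class, 252480 bp upstream of its TSS, at 14.1 and 17.7. Distance makes the assignment of this peak to GRB10 uncertain. LPIN1, a phosphatidate phosphatase, had a promoter peak at 9.05 and 18.4. Of these 10 genes only STK11 had the heptamer in the named peak.

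**Figure D4:**
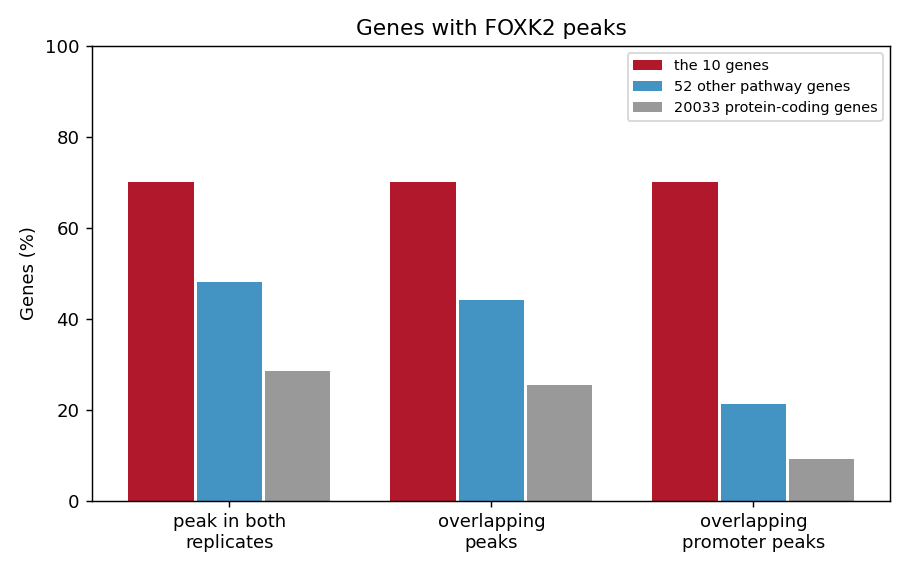
Percent of genes (vertical axis) with a peak in both replicates, with peaks that overlap between replicates, and with overlapping promoter peaks, for the 10 genes (red), the 52 other pathway genes (blue) and all 20033 protein-coding genes (grey). The bars of the 10 genes are 70.0% in each group, those of the other pathway genes fall from 48.1% to 21.2%, and those of all genes from 28.6% to 9.04%.

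Likeness of score was taken over 7615 genes with a peak in both replicates, including genes that are not protein-coding. Those whose best percentiles in the 2 replicates lay nearest to those of TSC1 were SMG1P3, CARD16 and ENTPD6. Their distances were 0.0286, 0.0608 and 0.0768 percentile points.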

How the data were processed

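The peak lists of both FOXK2 ChIP-seq replicates of OVCAR5 cells were used. According to the study's methods, the authors mapped single-end 50-bp reads to hg38 with Bowtie2 2.2.6 and called peaks with HOMER 4.10. Each replicate has its own deposited list, with a peak score (taken as a scaled tag count), a focus ratio, a position and the nearest TSS. The focus ratio is the fraction of tags the authors' software placed on the expected side of the centre. The study's methods and supplement also describe enrichment statistics per peak, with a comparison of target with input. Those values were not used here, and the settings of the HOMER call behind the deposited lists are not given in the sources used here.

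The lists were used without a further threshold. Scores under 10 were whole multiples of 0.1886 in replicate 1 and 0.1487 in replicate 2 (all of 10557 and 19445, within 0.0051), so each step was read as 1 tag. The weakest peaks held 16 and 21 tags. Intervals of tags (exact Poisson) and shares (Wilson), at 95%, cover counting error only. The ratio of scores has an exact binomial interval. A percentile counts ties at their midpoint. Peaks were shared when they overlapped by 1 bp, motifs were searched within 100 bp of centres, and genes were matched to RefSeq by Entrez ID. Exons, introns and neighbouring starts are from GENCODE release 44 on hg38, and all peaks lay within hg38 lengths.

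The 10 genes and the lists of other genes were chosen with earlier results of these data known. Named were the 10 genes, the 10 other pathway genes with the best mean score percentile among those with overlapping peaks, any listed gene that shares a promoter peak with a member (there was none), and the 3 genes nearest in score to the member with the best percentile. Alternatives were peaks at or above each list's median score, lists of equal length, limits on TSS distance, promoter peaks, position in the gene, stricter overlap, other motif windows and leaving out each replicate. On simulated lists and windows with clear-cut overlaps and planted motifs, the counts found differed from those planted by 0. That checks the code only and not the accuracy on the real lists. Tools were Python 3.11.15 with pandas 2.3.3, numpy 2.4.6, pysam 0.24.0, scipy 1.17.1 and matplotlib 3.10.9, and samtools 1.23.1.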

Additional observations from a re-analysis of the deposited data

How the results depend on the processing

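The count of 7 genes with a peak in both replicates was 4 (DDIT4, TSC1, RICTOR and DEPTOR) among peaks at or above each list's median score, and the 11 of 13 replicate 1 peaks that overlapped replicate 2 became 5 of 5 there and 9 of 13 with lists of equal length. It was 7 with lists of equal length, with TSS limits of 100000 and 10000 bp, with promoter peaks only and with overlapping peaks, and 9 by position within 5000 bp of the gene, which added SESN1 and SESN3. Leaving out each replicate gave 7 to 10. The share of all genes, 28.6%, was 17.7% above the median score, 23.3% with lists of equal length, 27.0% and 16.9% within 100000 and 10000 bp, 9.31% for promoter peaks, 31.5% by position, 25.5% for overlapping peaks, and 31.3% to 51.7% on leaving out each replicate. The 25 other pathway genes became 11 with promoter peaks only and stayed within 1.5 times under the other settings, with 27 to 34 on leaving out each replicate. The 3 genes with the heptamer in a shared peak became 6 with the relaxed core and were 3 with windows of 50 and 250 bp. With any peak of the list that is left, leaving out each replicate gave 3 to 5, the 5 being those of replicate 2, with SESN1 and SESN3. The results compared here are counts, shares and percentiles. They have no direction, so a reversal could not occur and was not tested. Equal-length lists lowered the mean best percentile of MTOR from 34.7% to 12.1%, of RPTOR from 49.6% to 33.2%, of SESN2 from 55.7% to 39.3% and of DDIT4 from 75.1% to 64.5%, and ranking within the annotation class lowered those of RPTOR to 39.7%, DDIT4 to 65.9%, MTOR to 26.2%, RICTOR to 78.6%, DEPTOR to 95.9% and TSC1 to 97.4% and raised that of SESN2 to 59.2%.

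No paired analysis was possible because the peak lists come from a single group, so there is no contrast to block.

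The main limits are the 2 replicates of 1 line, the lists' unequal length, and the lack of input signal. Scores near the floor, such as the 21 tags of MTOR in replicate 1, carry wide intervals. Assignment to the nearest TSS is a distance rule and does not show which gene a site acts on.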

Other observations

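Some peaks inside the genes were assigned to neighbours. SESN3 had an intron 1 peak in each replicate, both assigned to LOC100129203, at 4.34 in replicate 1 and 6.1 in replicate 2. These did not overlap, and each held the heptamer within 100 bp of its centre. Intron 28 of MTOR held a weak overlapping pair assigned to ANGPTL7, at 3.77 (20 tags) and 5.8 (39 tags), without a forkhead core. Intron 18 of TSC1 held a replicate 2 peak at 3.57, assigned to SPACA9. In RPTOR, an overlapping pair in intron 18 was assigned to LOC400627, at 4.53 (24 tags) and 5.21 (35 tags), also without a forkhead core.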
